A study of Mus musculus with 10 samples.

Results

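Denervated tibialis anterior muscle was compared with the contralateral tibialis anterior at day 14 after denervation, the latest time point of a 14-day series. The comparison rests on 2 of the 10 two-colour spotted arrays, the first labelling and the reverse labelling of day 14, chosen by their sample titles. One RNA came from denervated muscle of CD1 mice aged 3 months, 14 days after denervation, and the RNA it was set against came from the contralateral muscle of CD1 mice of that age. The 2 arrays of time 0 served as background. Their labels also call one channel denervated and give no interval. No group carried a transgene or a drug according to the labels, which do not state how the muscle was denervated, whether animals were pooled, or whether both arrays of a day shared extracts. P-values therefore measure the spread between the 2 arrays of a time point, which may be technical. That spread was pooled over all 10 arrays of the series. Every value below is a log2 ratio of denervated over contralateral muscle, so a value above 0 means more RNA in denervated muscle, and normalization sets it against the other spots of the same slide.

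Tibialis anterior is a fast-twitch muscle of the front of the lower leg. A muscle that loses its motor nerve stops contracting and atrophies, as fibres break down contractile protein through the ubiquitin-proteasome system and autophagy. Denervated fibres are also known to change the ion channels of their surface membrane, their energy metabolism and the transcription factors that hold the adult fibre programme.

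Of 2300 features on the array, 89 were genes with a single symbol. Those that passed a test are described one by one, and most of the rest by counts and ranges. Both day 14 arrays gave the same sign for 54 of the 89 (60.7%), 18 higher and 36 lower in denervated muscle, beside 64.8% of all features (29.5% higher and 35.3% lower). The other 35 had opposite signs on the 2 labellings. In the limma fit, 13 named genes passed an adjusted p of 0.05, 6 higher and 7 lower. That is 14.6% of the named genes, beside 14.3% of all features (8.74% higher and 5.57% lower), so the named genes passed about as often as any feature. The balance of directions rested on both arrays: without the first labelling 11 named genes passed higher and 3 lower, with 7 of the 13 kept, and without the reverse labelling 2 passed higher and 10 lower, with 5 of the 13 kept. At time 0 the same limma fit called 0 of 2300 features (0.0%), although 329 had an unadjusted p under 0.05. A rule of size (mean of 1 or more in either direction, signs alike) was met by 7 named genes (7.87%), 4 higher and 3 lower. Among all features a larger share, 11.3%, met that rule at day 14 (7.22% higher and 4.04% lower), against 2.91% at time 0. The named genes were Arhgef2, Parvb, Neb and Ddx42 higher and Nisch, Btaf1 and Scn4b lower. Of these, Btaf1 (-2.55 and -0.06), Arhgef2 (0.38 and 3.15) and Parvb (0.68 and 2.45) differed widely between the 2 day 14 arrays. The median of the day 14 means was -0.09 over the named genes and -0.03 over all features.

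Ratios carry no level, so the tissue label could not be checked against the abundance of muscle genes. Of 11 listed muscle fibre markers, 3 were named on the array (Neb, Trdn and Slc25a4), and none of the listed markers of immune, fibroblast, Schwann, endothelial, satellite, blood or fat cells was. None of 32 listed denervation and atrophy genes, such as the acetylcholine receptor subunits and the ubiquitin ligases Trim63 and Fbxo32, was among the named genes either. In whole muscle a lower ratio can come from fewer cells of a type or from less RNA per cell, and the 2 cannot be told apart here.

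The day 14 arrays had wider spread than those of time 0. Their median absolute deviations over probes were 0.441 and 0.390, against 0.306 and 0.170 for the time 0 arrays. Spots of one probe lay more than 2 log2 units apart for 21.7% and 26.2% of probes at day 14, against 7.64% and 8.33% at time 0. The medians over probes were -0.15 for the first labelling and 0.04 for the reverse labelling of day 14. Between the 2 arrays of a day, the SD had a median over all features of 0.241 at day 14. It was 0.217 at time 0, 0.120 at day 1, 0.167 at day 3 and 0.217 at day 7. The limma fit pooled this spread over all days, so day 14 p-values also rest on the closer arrays of the other days.

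The genes that passed the test are shown by array in the plot of day 14 and time 0 values, and are then taken in order of function. The functional groups were made with earlier results of these data known, so counts within them describe and do not test.

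**Figure D1:**
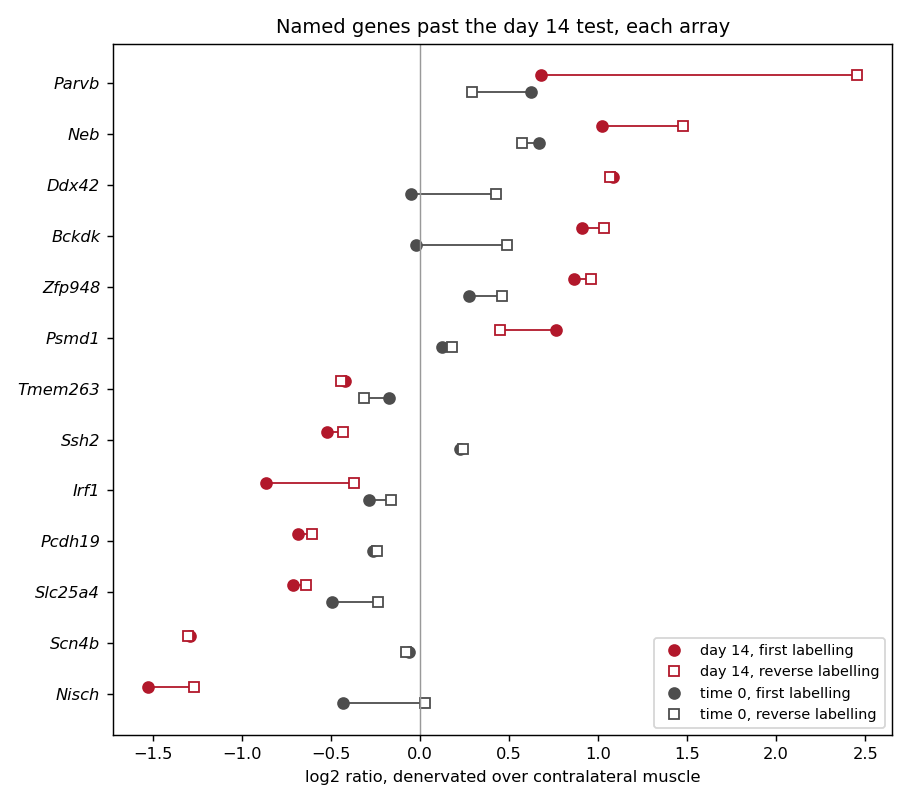
Log2 ratio of denervated over contralateral muscle (horizontal axis) for the 13 named genes past the day 14 test (rows), on each day 14 array (red) and each time 0 array (grey), with filled circles for the first and open squares for the reverse labelling, joined by a line. In each row the 2 day 14 values do not overlap the 2 time 0 values, which picking genes by their day 14 values favours. The widest day 14 pair is that of Parvb, at 0.68 and 2.45.

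Among genes of membrane excitability, the triad and calcium handling, 1 of 4 passed. Scn4b encodes the beta-4 auxiliary subunit of voltage-gated sodium channels, which carry the muscle action potential. It stood at -1.29 and -1.30 on the 2 day 14 arrays, against -0.06 and -0.08 at time 0. Both day 14 values lay far below both time 0 values. The mean of -1.30 ± 0.01 (SD, n = 2 arrays) is 0.406 times the contralateral level (adjusted p = 0.00110). It is spotted as 2 probes of the same sequence record, and all 16 of its spots at day 14 were negative. The spots of one probe ran from -1.77 to -1.05 on the first labelling and from -1.54 to -0.77 on the reverse. Those of the other ran from -2.21 to -0.75 and from -1.42 to -0.51. Both probes therefore showed less Scn4b RNA in denervated muscle. At time 0 the first probe stood at 0.31 and -0.17 and the second at -0.42 and 0.02. At day 14 they stood at -1.44 and -1.31, and at -1.15 and -1.30. The gene values average the 2 probes, so the close time 0 values and the SD of 0.01 leave out the differences between them. Probes printed around the first of them had medians of -0.95 and -0.09 and those around the second of -0.01 and 0.33, and their part in the result was not tested. Of the 2300 features, 88 had a lower day 14 mean than Scn4b.

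The other 3 genes of that group lay nearer 0 and did not pass. Trdn, the triadin of the junctional sarcoplasmic reticulum, stood at -0.18 and -0.01 at day 14, with its 3 probes at -0.22, -0.05 and -0.02. Spots of the probe at -0.22 did not agree, and ran from -3.19 to 0.22 on the first and from -0.25 to 5.40 on the reverse labelling. Jph1, the junctophilin that ties the surface membrane to the sarcoplasmic reticulum, stood at 0.23 and 0.14. Atp2b1, a calcium pump of the surface membrane, stood at -0.31 and -0.38, against -0.59 and -0.26 at time 0. On neither day 14 array did a triad gene reach 1 in size.

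Genes of the sarcomere, cytoskeleton, adhesion and matrix held 5 of the 13 passing genes, from 11 measured, with 2 higher and 3 lower. Over all features 14.3% passed, and the group was drawn up with results known, so its count is a description. Nisch encodes nischarin, which binds integrin and restrains cell migration. Its day 14 values were -1.53 and -1.27, against -0.43 and 0.03 at time 0. All 8 of its day 14 spots were negative, from -1.70 to -0.87. The mean of -1.40 ± 0.18 is 0.380 times the contralateral level (adjusted p = 0.00396), the lowest mean among the 89 named genes. Probes printed next to Nisch had medians of -0.52 and -0.32 on the same arrays, so they were also below 0, and what part this plays was not tested.

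Promoter sequence was read for the passing genes because E-boxes (CANNTG, the same on both strands) are the sites that myogenic basic helix-loop-helix factors bind, and these factors are known to respond to denervation. RefSeq promoters (build GRCm38.p6, 250 bases before to 50 after the start) were held for 11 of the 13 genes, as 14 windows. An E-box lay in 9 of the 14 windows, beside 72.3% of all 32851 promoters, and the MEF2 consensus site in none, beside 1.86%. The windows of Scn4b and Nisch, the 2 genes that passed both at day 14 and against time 0, are shown 5′ to 3′ on the gene's strand, with E-boxes in capitals. That of Scn4b spans chr9:45138374-45138673 on the plus strand and holds no E-box, and that of Nisch spans chr14:31206777-31207076 on the minus strand and holds 1, which starts at position -97 from the transcription start.
Scn4b: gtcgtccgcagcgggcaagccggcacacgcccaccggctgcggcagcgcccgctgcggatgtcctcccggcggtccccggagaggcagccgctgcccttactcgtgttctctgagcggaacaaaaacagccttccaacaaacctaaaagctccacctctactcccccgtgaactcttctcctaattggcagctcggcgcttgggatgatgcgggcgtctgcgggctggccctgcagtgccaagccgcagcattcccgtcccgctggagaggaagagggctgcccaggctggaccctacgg
Nisch: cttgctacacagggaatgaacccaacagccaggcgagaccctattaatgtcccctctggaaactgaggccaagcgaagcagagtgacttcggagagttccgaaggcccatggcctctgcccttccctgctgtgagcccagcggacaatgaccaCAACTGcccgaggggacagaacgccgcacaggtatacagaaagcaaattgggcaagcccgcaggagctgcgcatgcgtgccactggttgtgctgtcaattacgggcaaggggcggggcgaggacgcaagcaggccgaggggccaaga
A match is a description of the letters in this window and shows no binding.

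Neb encodes nebulin, the giant protein that runs along the thin filament of the sarcomere. It stood at 1.02 and 1.47 on the day 14 arrays and at 0.67 and 0.57 at time 0. The day 14 values were higher, but both time 0 values were above 0 as well. Its 8 spots at day 14 all lay between 0.78 and 1.61. The mean of 1.25 ± 0.32 is 2.38 times the contralateral level (adjusted p = 0.0177). Without the reverse labelling array it stood at 1.02 and did not pass (adjusted p = 0.0862). Neighbouring probes had medians of -0.22 and 0.17, near 0.

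Parvb encodes beta-parvin, an actin-binding protein of integrin adhesions and costameres. Its day 14 values of 0.68 and 2.45 were both above its time 0 values of 0.63 and 0.29, the first of them by little. Its mean was 1.57 ± 1.25 (adjusted p = 0.0441). The spots did not agree: on the first labelling they read -2.40, -0.28, 1.64 and 10.5, and on the reverse labelling -0.72, -0.21, 5.12 and 5.50. The median of such spots describes none of them. Without the reverse labelling it stood at 0.68 and did not pass (adjusted p = 0.131).

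Ssh2, a slingshot phosphatase that activates the actin-severing protein cofilin, stood at -0.52 and -0.43 at day 14, against 0.23 and 0.24 at time 0. It was the one passing gene whose sign on both time 0 arrays was opposite to its sign at day 14. Its mean of -0.48 ± 0.06 passed (adjusted p = 0.0388). Pcdh19, a protocadherin of cell adhesion, stood at -0.69 and -0.61, against -0.26 and -0.24 at time 0, with a mean of -0.65 ± 0.06 (adjusted p = 0.0282). Probes next to Pcdh19 had medians of -0.53 and -0.31. Neither gene passed without the first labelling of day 14 (adjusted p = 0.152 for Ssh2 and 0.114 for Pcdh19) or without the reverse labelling (0.0944 and 0.0819).

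The remaining 6 genes of this group did not pass. Arhgef2, an exchange factor that activates RhoA, had the highest mean of any named gene at 1.76 ± 1.96, from 0.38 on the first and 3.15 on the reverse labelling (adjusted p = 0.0841). Its reverse labelling spots read 0.37, 0.63, 5.66 and 5.92. Myl6, a non-muscle myosin light chain, stood at -0.67 and -0.19, against -0.19 and -0.33 at time 0. Abl2, a tyrosine kinase that acts on actin, stood at 0.03 and 0.08. Plec, Col12a1 and DPYSL3 had opposite signs on the 2 arrays.

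Of 11 genes of metabolism, Slc25a4 was lower and Bckdk was higher. Slc25a4 is the muscle form of the carrier that exchanges ADP and ATP across the inner mitochondrial membrane. It stood at -0.71 and -0.64 at day 14, against -0.49 and -0.23 at time 0. The day 14 values were the lower ones, while all 4 values were below 0. Its 8 day 14 spots ran from -0.73 to -0.30, and its mean was -0.68 ± 0.05, 0.626 times the contralateral level (adjusted p = 0.0199). It did not pass without the first or the reverse labelling (adjusted p = 0.0805 and 0.0624).

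Bckdk is the kinase that switches off breakdown of branched-chain amino acids at the ketoacid dehydrogenase step. It stood at 0.91 and 1.03 at day 14, against -0.02 and 0.49 at time 0, with no overlap. Its mean of 0.97 ± 0.09 is 1.96 times the contralateral level (adjusted p = 0.0134), and without the reverse labelling it did not pass (0.91, adjusted p = 0.0608). Bckdk lies in the same print block of the slide as Ddx42 and Zfp948, described below, and the part this plays was not tested. Probes around Bckdk had medians of 0.27 and -0.27. With print blocks centred Bckdk stood at 0.76 and still passed (adjusted p = 0.0228). The gene identifier that the platform annotation gives for Bckdk was not in the mouse gene table used here, so its name rests on that annotation.

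Further metabolic genes had values below 0 on both arrays and did not pass. Gclm, which modulates the first enzyme of glutathione synthesis, stood at -0.58 and -0.65 (adjusted p = 0.0577). Maoa, the monoamine oxidase of the outer mitochondrial membrane, stood at -0.34 and -0.87 (adjusted p = 0.0517). Slc7a1, a cationic amino acid transporter, stood at -0.58 and -0.27 (adjusted p = 0.0775). At time 0 Gclm stood at -0.43 and -0.29, Maoa at -0.36 and -0.26 and Slc7a1 at -0.34 and -0.25, so all were below 0 there as well. None of them passed against time 0 in limma (adjusted p = 0.611, 0.522 and 0.761). In the day 14 test these 3 lay just outside the threshold, as did MBNL2 (adjusted p = 0.0517) and Rbfox2 (adjusted p = 0.0687), described below. Irf1 (adjusted p = 0.0474), Parvb (0.0441) and Tmem263 (0.0399) lay just inside it. Lipt1 and Fam173a were also below 0 on both arrays, and the other 4 metabolic genes had opposite signs.

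In the group of protein turnover, chaperones and translation control, 1 of 9 passed. Psmd1, a large subunit of the regulatory cap of the proteasome, stood at 0.77 and 0.45 at day 14, against 0.12 and 0.18 at time 0. Its mean was 0.61 ± 0.23 (adjusted p = 0.0373). The probes printed around it had medians of 0.97 and 1.06 at day 14, above Psmd1 itself. With print blocks centred it stood at 0.39 and did not pass (adjusted p = 0.104), and it also did not pass without the first or the reverse labelling (adjusted p = 0.186 and 0.0566).

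Of the ubiquitin pathway genes, Ube2d2a, a ubiquitin-conjugating enzyme, stood at -0.45 and -0.46, against -0.81 and -0.16 at time 0. Nedd4l, a ubiquitin ligase that takes up membrane channels, stood at 0.15 and 0.43, against 0.43 and 0.49 at time 0. Neither passed. Herc1, another ubiquitin ligase family member, stood at 0.40 and 0.03. Eif4ebp2, which binds and holds back the cap-binding initiation factor, stood at -0.52 and -0.35 (adjusted p = 0.108), against -0.51 and -0.16 at time 0. Hspb2, a small heat shock protein of muscle, stood at 0.09 and -0.13.

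Transcription regulators numbered 13, of which 2 passed in opposite directions and 8 had opposite signs on the 2 arrays. Zfp948, a zinc finger protein, stood at 0.87 and 0.96 at day 14, against 0.27 and 0.46 at time 0. Its day 14 spots ran from 0.60 to 1.29, all above 0. The mean of 0.91 ± 0.06 is 1.88 times the contralateral level (adjusted p = 0.00720). Irf1, a transcription factor of the interferon response, stood at -0.86 and -0.37, against -0.29 and -0.16 at time 0. Its mean of -0.62 ± 0.35 passed by little, and it did not pass without the first labelling (-0.37, adjusted p = 0.254). With print blocks centred it stood at -0.23 (adjusted p = 0.290), and the probes around it had medians of -0.84 and -0.10.

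Mef2a, which drives muscle gene expression, stood at 0.28 and 0.84 on the day 14 arrays (adjusted p = 0.117 in limma), with reverse labelling spots from 0.82 to 6.44. Btaf1, an ATPase that removes the TATA-binding protein from DNA, stood at -2.55 and -0.06. Maf, a leucine zipper transcription factor, stood at -2.63 and 0.06. The values of Btaf1 and Maf below -2 came from the first labelling alone. Zbtb16, also known as PLZF, stood at -2.15 on the first and 2.47 on the reverse labelling, so its mean of 0.16 describes neither array.

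Genes of RNA binding and processing had the highest group median, at 0.43 beside -0.03 over all features. On both arrays 5 of the 10 were higher and 3 lower, 2 had opposite signs, and 1 passed. The genes above that median include Dusp11 and Rbfox2, whose reverse labelling spots did not agree, and the ribosomal RNA gene Rn28s1. The median is therefore a description of few genes. Ddx42, an RNA helicase linked to splicing, stood at 1.08 and 1.07 at day 14, against -0.05 and 0.42 at time 0. Its 8 day 14 spots ran from 0.81 to 1.28. The mean of 1.07 ± 0.01 is 2.11 times the contralateral level (adjusted p = 0.0109). Ddx42 and Zfp948 are printed next to each other, in the print block that also holds Bckdk. Rn28s1 is printed next to both Bckdk and Ddx42. The probes around Ddx42 had medians of 0.27 and 0.69 and those around Zfp948 of 0.41 and 0.80. With print blocks centred Ddx42 and Zfp948 stood at 0.87 and 0.70 and still passed (adjusted p = 0.0137 and 0.00857).

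Other genes of this group did not pass. MBNL2, a muscleblind-like splicing factor, stood at 0.53 and 0.51 (its gene identifier, too, was not in the mouse gene table), and Rbfox2, another splicing factor, at 0.28 and 1.32. The reverse labelling spots of Rbfox2 did not agree and ran from 0.01 to 5.09. Sfpq, also a splicing factor, had opposite signs on the 2 arrays, at 0.14 and -0.44. Rn28s1, a gene of large-subunit ribosomal RNA, stood at 0.79 and 0.35 at day 14, against 1.48 and 0.09 at time 0. Larp4b, a La-related RNA-binding protein, stood at -0.39 and -0.50, against -0.48 and -0.07 at time 0. Msi2, the RNA-binding protein Musashi 2, stood at -0.22 and -0.36, against -0.28 and -0.17 at time 0.

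None of the 9 Golgi and endosome genes passed, where 14.3% of all features did. Opposite signs were seen for 7 of them, some with both values near 0, such as Trappc1 at -0.07 and 0.06. Arf6, a small GTPase of endosome recycling, stood at -0.12 and -0.06, and Tgoln1, a trans-Golgi membrane protein, at 0.27 and -0.18. None of the 11 genes of signalling, growth and cell cycle passed either. Pmepa1, an inhibitor of TGF-beta signalling, stood at -0.68 and -0.24, Ptpdc1, a phosphatase, at -0.93 and -0.09, and Lpar6, a lysophosphatidic acid receptor, at 0.41 and 0.33. Of the genes given here without having passed, several were chosen after their values were seen, to fill out each functional group.

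Of the 11 remaining genes, Tmem263, a small transmembrane protein, passed. It stood at -0.42 and -0.44 at day 14, against -0.18 and -0.31 at time 0, with a mean of -0.43 ± 0.01 (adjusted p = 0.0399). With print blocks centred it stood at -0.05 (adjusted p = 0.867), and it did not pass without the first or the reverse labelling (0.122 and 0.126). The predicted gene Gm14137 stood at -0.48 and -0.70 (adjusted p = 0.0857), against -0.25 and -0.18 at time 0.

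**Figure D2:**
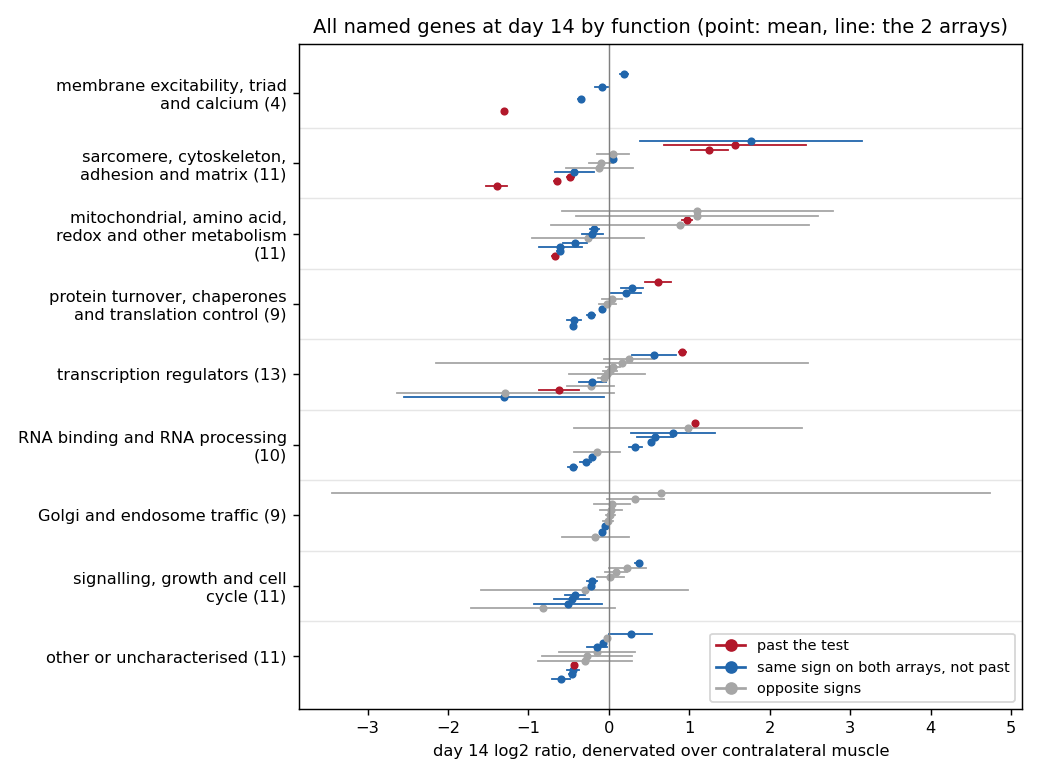
Day 14 log2 ratio (horizontal axis) of all 89 named genes, in rows by function with the number of genes in brackets, where a point is the mean and a line joins the 2 arrays. Red marks the 13 genes past the test, blue the same sign on both arrays without passing, and grey opposite signs. The 7 genes of opposite sign among Golgi and endosome genes include Rabep1, from -3.44 to 4.73.

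By the gene lists given for the tissue, 2 of 5 measured sarcomere, costamere and actin regulators passed higher (Neb, Parvb) and 2 lower (Nisch, Ssh2), from 37 listed, where 8.74% of all features passed higher and 5.57% lower. These lists were chosen with results of these data known, so their counts are a description. Of 31 listed excitability, triad and calcium genes 3 were measured and Scn4b passed lower. Of 32 listed metabolic genes 4 were measured, with Bckdk higher and Slc25a4 lower, and of 33 transcription regulators 8 were measured, with Zfp948 higher and Irf1 lower. Psmd1 was the single measured member of 32 proteasome, ubiquitin and chaperone genes. Ddx42 was the one of 3 measured RNA-binding genes to pass, and neither of 2 measured Golgi and endosome genes did. The medians of these lists ran from -0.09 to 1.25, beside -0.03 over all features. The highest was that of the 5 sarcomere, costamere and actin regulators, 3 higher and 2 lower, and is the value of Neb itself. Of the 3 higher ones, Parvb and Arhgef2 had spots that did not agree.

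The 2 labellings of day 14 differed for a subset of genes. The arrays lay more than 2 log2 units apart for 10 of the 89 named genes (11.2%), beside 15.8% of all features, and in all 10 the reverse labelling gave the higher value. At time 0, day 1 and day 3 no named gene had such a gap, and at day 7 there were 4, with the first labelling higher in each. Over all features the reverse labelling was higher in 344 of the 364 such cases at day 14. At earlier times it was higher in 82 of 85 at time 0, 85 of 87 at day 1, 50 of 123 at day 3 and 51 of 173 at day 7, so a gap toward the reverse labelling was also present at time 0 and day 1, in fewer features.

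Rabep1, the rabaptin effector of the small GTPase Rab5, had the widest gap, with -3.44 on the first and 4.73 on the reverse labelling, against 0.59 and 0.21 at time 0. Its spots read -3.74, -3.68, -3.20 and -0.46 on the first labelling and -0.16, 3.62, 5.84 and 5.85 on the reverse. Zbtb16, printed next to it, had spots of -3.99, -3.80, -0.50 and -0.18 on the first labelling and -6.79, 0.42, 4.52 and 5.77 on the reverse. For both genes spots of the same sequence on the same slide differed by several log2 units.

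Spots of one probe also parted in other genes. Mthfsl, a folate enzyme relative, had reverse labelling spots of -0.06, -0.05, 5.61 and 6.11. Ttc19, an assembly factor of respiratory complex III, had -0.61, -0.15, 5.34 and 5.40. Nt5dc2, a nucleotidase-domain protein, had -0.59, -0.40, 5.38 and 5.38. In each, 2 spots lay below 0 and 2 above 5, so the median fell between them (2.78, 2.60 and 2.49) at a value that no spot held. The first labelling medians of these genes were -0.58, -0.41 and -0.72. Dusp11, an RNA phosphatase, had reverse labelling spots of -0.16, 0.27, 4.52 and 5.33, with day 14 medians of -0.43 and 2.40.

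On the reverse labelling of day 14, 846 of 9216 spots had a ratio of at least 4, against 68 on the first labelling. On the first labelling 490 spots were at -3 or below, against 102 on the reverse. At time 0, 2 and 268 spots were at least 4 on the first and reverse labelling, and 27 and 18 were at -3 or below. None of the 13 passing genes but Parvb had a day 14 spot past these limits. A label effect of equal size on both arrays cancels in their mean, and the part it played in single genes was not tested.

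**Figure D3:**
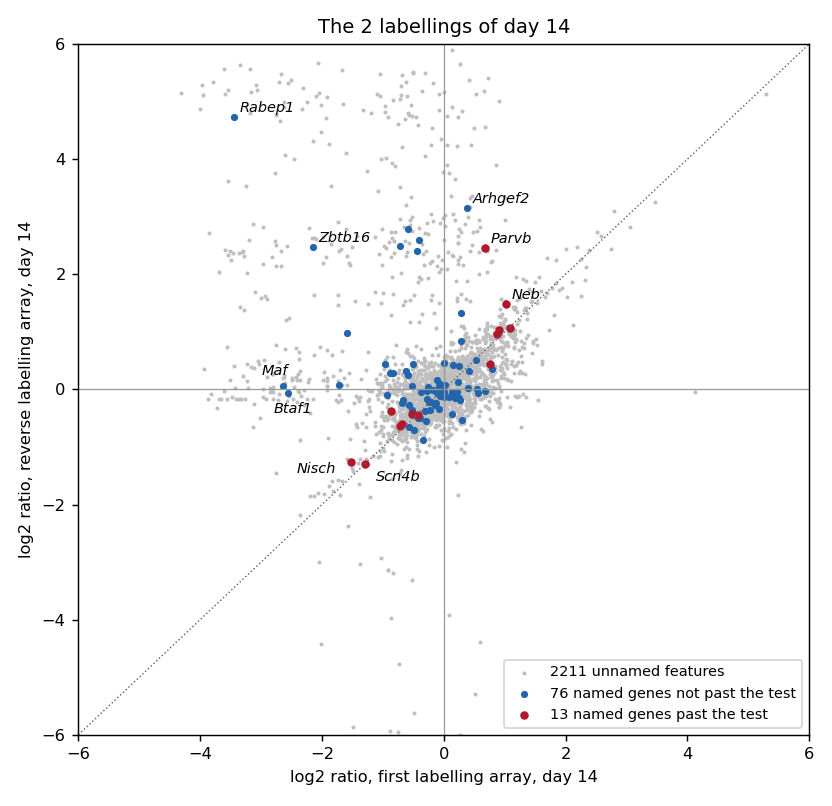
Log2 ratio on the first labelling array of day 14 (horizontal axis) against the reverse labelling array (vertical axis) for 2211 unnamed features (grey), 76 named genes not past the test (blue) and 13 past it (red), with 5 features outside the axes. The dotted line marks equal values. Most passing genes lie near that line, while Rabep1, Zbtb16, Arhgef2 and Parvb lie above it, with higher values on the reverse labelling.

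Whether a day 14 ratio went beyond the time 0 background was tested as the difference between the 2 days. Scn4b differed by -1.23 ± 0.14 (SE) and Nisch by -1.19 ± 0.23 (adjusted p = 0.00821 and 0.0463), and no other named gene passed, beside 4.0% of all features (0.913% lower). The Nisch difference was kept under 4 of 12 alternatives. It did not pass with either day 14 array left out (adjusted p = 0.0790 and 0.0542), with print blocks centred (-0.80, adjusted p = 0.149), with the mean of the 4 spots, with orientation as a block or without the day 1 arrays. That of Scn4b was kept under 10 of 12, and lost with arrays scaled to one spread and with the arrays of time 0 and day 14 alone, as was that of Nisch. Without passing, the difference was -0.71 for Ssh2 (adjusted p = 0.0657) and 0.89 for Ddx42 (0.0965). The day 14 arrays of 32 named genes (36.0%) did not overlap their time 0 arrays, beside 45.5% of all features. All 13 passing genes were among the 32, but they were picked by their day 14 values, which favours such a separation.

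Day 14 was next set against day 7. No named gene passed in limma, beside 0.783% of all features (18 features, all unnamed, 16 higher and 2 lower at day 14). The smallest adjusted p of a named gene was 0.0652, for Zfp948, and 29 named genes had an unadjusted p under 0.05 (24.5% of all features had), of which 22 were lower and 7 higher at day 14.

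The difference from day 3, added after these values had been seen, was passed by 13 named genes (14.6%), beside 7.52% of all features (4.3% higher and 3.22% lower). Bckdk, Neb, Ddx42 and Zfp948 were higher at day 14 than at day 3, by 1.52, 1.48, 1.27 and 1.27. Nisch, Pcdh19, Gclm, Maoa, Larp4b, Slc25a4, Irf1, Tmem263 and Msi2 were lower at day 14, by differences from -1.37 for Nisch to -0.73 for Msi2. All 13 of these calls were lost in limma without the day 1 arrays (adjusted p from 0.0742 to 0.100, 24 named genes unadjusted) and with arrays scaled to one spread (from 0.131 to 0.214, 22 unadjusted). In 11 of the 13 genes both day 14 arrays had the opposite sign to both day 3 arrays, the exceptions being Nisch and Neb. The 13 genes were picked by this same difference, which favours opposite signs, and the share over all features was not counted. The signs are therefore a description.

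Pcdh19 stood at -0.69 and -0.61 at day 14, against 0.81 and 0.44 at day 3. Slc25a4 stood at -0.71 and -0.64, against 0.44 and 0.27. Gclm stood at -0.58 and -0.65, against 0.78 and 0.50. All 3 genes were thus above the contralateral level on both day 3 arrays and below it on both day 14 arrays. They were below it on both time 0 arrays as well, at -0.26 and -0.24 for Pcdh19, -0.49 and -0.23 for Slc25a4 and -0.43 and -0.29 for Gclm. None of the 3 passed against time 0 in limma (adjusted p = 0.332, 0.385 and 0.611). Bckdk went the other way, at 0.91 and 1.03 at day 14 against -0.67 and -0.43 at day 3, as did Zfp948, at 0.87 and 0.96 against -0.41 and -0.30.

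The differences of Bckdk, Zfp948, Pcdh19 and Nisch held when either day 14 array was left out, and those of the other 9 genes did not. With print blocks centred 5 of the 13 passed, namely Bckdk, Zfp948, Ddx42, Neb and Pcdh19. Scn4b and Ssh2, both lower at day 14, differed from day 3 by -0.12 and -0.16 (adjusted p = 0.637 and 0.553). Scn4b stood at -1.13 and -1.23 at day 3 and at -0.99 and -1.18 at day 7, close to its day 14 values.

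**Figure D4:**
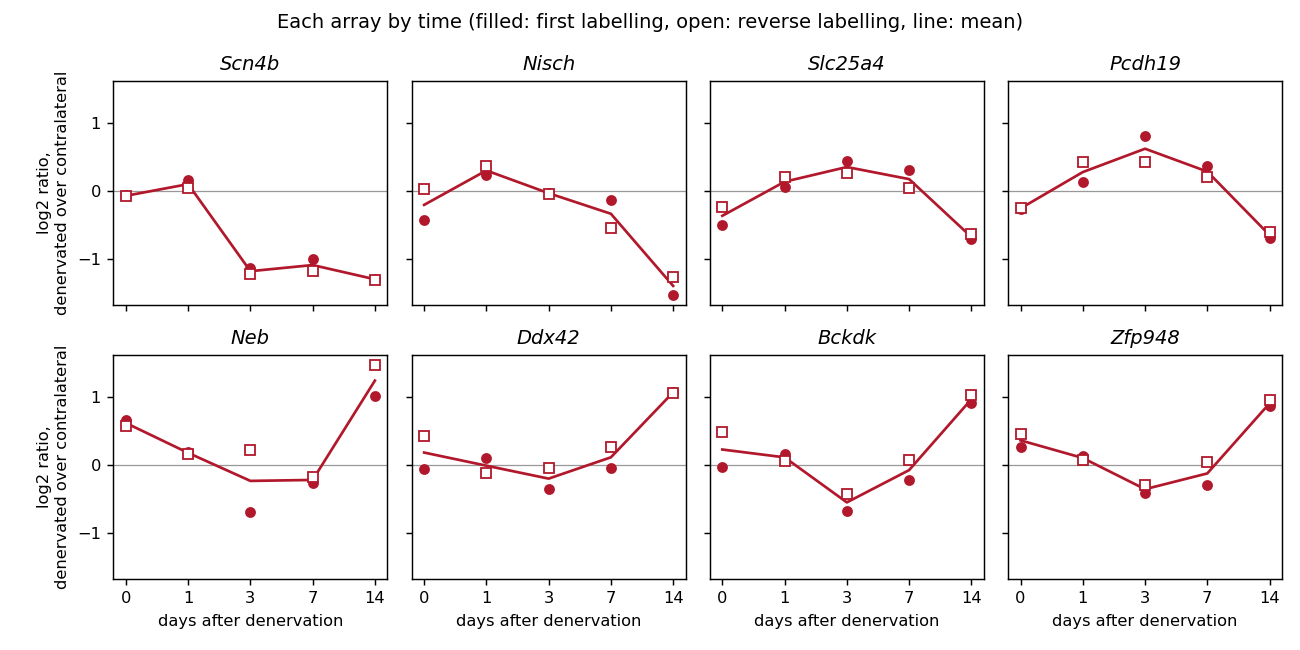
Log2 ratio (vertical axis) against days after denervation (horizontal axis, evenly spaced) for 8 genes past the day 14 test, with filled circles for the first labelling, open squares for the reverse labelling and a line through the means. Scn4b is near its day 14 level from day 3 on, while Slc25a4 and Pcdh19 are above 0 on day 3 and below 0 at day 14, and Bckdk and Zfp948 the reverse. Slc25a4 and Pcdh19 are also below 0 at time 0.

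As to the settings that end these calls, none of the 89 named genes passed in limma with the arrays scaled to one median absolute deviation (14 with an unadjusted p under 0.05) or with the 4 arrays of time 0 and day 14 alone (17 unadjusted). With the day 1 arrays left out 7 passed, namely Scn4b, Nisch, Zfp948, Ddx42, Bckdk, Neb and Slc25a4. Centring the print blocks left 8 named genes past the test, 6 higher and 2 lower, and 231 higher against 85 lower over all features (201 against 128 as reported). Under it Slc25a4 stood at -0.59, Pcdh19 at -0.56, Ssh2 at -0.41 and Parvb at 1.35 without passing (adjusted p = 0.0661, 0.0696, 0.141 and 0.106). For the named genes, centring each array on its median gave 14, 8 higher and 6 lower. Scn4b, Nisch, Ddx42 and Zfp948 passed without either day 14 array.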

How the data were processed

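RNA of denervated and contralateral muscle was hybridised to the same two-colour spotted array. Per the labels, images were read with QuantArray, the authors normalized each spot with SNOMAD (global and lowess) and deposited log2 ratios, positive for RNA higher in denervated muscle. How background was corrected, which spots were filtered and the versions run: not given in the sources used here. Signal over background is unknown, since no intensities entered. No sign was turned. The median of the 4 spots of each probe was taken, and probes of one gene were averaged, which gave 2300 features from 9216 spots on each of 10 arrays. The 4-spot layout was read from the annotation. For 9 of the 89 named genes the gene identifier was not in the mouse table. limma 3.58.1 (R 4.3.3) fitted one mean per time point over all 10 arrays (5 residual degrees of freedom), with two-sided p-values adjusted over all 2300 features by Benjamini-Hochberg at 0.05, and was tested on simulated data. Genes were named if they passed the day 14 test or a day difference, met the rule of size, ranked among the 12 highest or 12 lowest means of like sign, were among the 5 widest opposite pairs, or belonged to the gene lists (up to 4 each). Members, lists and the grouping of genes by function were chosen with earlier results of these data known. Replicate numbers stand for labelling orientation. The gap between labellings correlated between days at 0.03 to 0.42 over features, so orientation was also fitted as a block. Alternatives covered the spot summary, centring, scaling, recurring values, spot agreement, robust eBayes and arrays left out.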

Additional observations from a re-analysis of the deposited data

Results flagged for a closer look

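The day 14 ratio differed from that of an earlier time in the limma fit, by a test of the difference itself, for the following. Against time 0, 92 features passed, with Scn4b at -1.23 and Nisch at -1.19 among named genes, the first kept under 10 and the second under 4 of 12 alternatives. Against day 7, 18 features passed and no named gene did. Against day 3, a contrast added after the data had been seen, 173 features passed. The named genes higher at day 14 than at day 3 were Bckdk (1.52), Neb (1.48), Ddx42 (1.27) and Zfp948 (1.27). Those lower were Nisch (-1.37), Pcdh19 (-1.27), Gclm (-1.25), Maoa (-1.13), Larp4b (-1.10), Slc25a4 (-1.03), Irf1 (-1.03), Tmem263 (-0.88) and Msi2 (-0.73), all as log2 differences, and none of these 13 passed without the day 1 arrays (24 named genes unadjusted) or with arrays scaled to one spread (22 unadjusted). With 2 arrays per time point no search for outlying arrays was made.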

How the results depend on the processing

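Each of the 13 named calls was lost under at least 2 alternatives, and the cause was not tested. With arrays scaled to one median absolute deviation, limma called 15 features and 0 named genes at day 14 (14 unadjusted), 0 against time 0 (237 unadjusted), 0 against day 7 (287 unadjusted) and 4 against day 3, and the size count was 135. With the arrays of time 0 and day 14 alone, which leaves fewer samples, it called 1 feature and 0 named genes (17 unadjusted), and 0 against time 0 (247 unadjusted). Without the day 1 arrays, an alternative chosen after seeing the data, the counts were 162 features, 7 named genes, 39 against time 0, 4 against day 7 and 19 against day 3, none of the 19 a named gene (24 named genes unadjusted). With print blocks centred, 8 named genes passed (6 higher, 2 lower, 6 of them among the 13), and the split over all features was 231 higher and 85 lower, against 201 and 128 as reported. Against day 3 the split was 99 higher and 74 lower as reported, 135 and 59 with arrays centred and 115 and 17 with print blocks centred. Leaving out recurring spot values gave 31 against day 7 and 281 against day 3. Keeping features with spots within 2 log2 units gave 186 against time 0, 221 against day 7, 382 against day 3, a size count of 128, and 22 named genes of opposite sign among 67. Robust eBayes gave 10 against day 7. With orientation as a replicate block, 306 features and 11 named genes passed (10 of the 13, without Parvb, Ssh2 and Tmem263), and 8 features passed against day 7. Leaving out one day 14 array gave 261 to 327 features and 12 to 14 named genes, but turned the split: 271 higher and 56 lower on the reverse labelling alone, 124 and 137 on the first alone. It gave 137 to 231 against time 0, 96 to 191 against day 7, 120 to 275 against day 3 and size counts of 432 to 447. Without the reverse labelling Rabep1 stood at -3.44 and Zbtb16 at -2.15, and without the first at 4.73 and 2.47. The number of arrays limits the precision.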
